A study of Mus musculus with 10 samples.

Results

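The glucocorticoid receptor (GR) gene Nr3c1 and 8 genes whose products supply its ligand, fold it or act with it on chromatin were examined for occupancy in mouse skeletal muscle. These were Hsd11b1, Hsp90aa1, Ncoa1, Ncoa2, Ncoa3, Ep300, Crebbp and Ncor1, 9 of 26186 genes in the curated RefSeq annotation of GRCm38. They were chosen by name, and every peak with its midpoint in the gene body or within 30 kb of a transcription start site (TSS) was assigned to them. Chromatin immunoprecipitation sequencing (ChIP-seq) was performed on skeletal muscle of male C57BL/6J mice aged 10 weeks per the labels, which were either fed or starved for 24 h. Each condition had 1 library for GR, for LSD1, a demethylase of histone lysines, for H3K9me1 and H3K9me2, histone H3 with a single methyl group or a pair of them on lysine 9, and for the input. The 8 peak lists are called here by antibody and condition, as in GR fed or LSD1 starved. With 1 library in each group no test between conditions was possible, and all differences describe these libraries only. The depth of the libraries is unknown, because peak lists hold no read numbers. Both GR libraries carried one library code in the labels and both LSD1 libraries another. For H3K9me1 and H3K9me2 the code changed with the condition, so that starvation and library code cannot be told apart for these marks.

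GR resides in the cytoplasm in a chaperone complex built on heat shock protein 90, and moves to the nucleus when it binds glucocorticoid. In the nucleus it binds glucocorticoid response elements (GREs), paired half-sites that each hold one receptor of a dimer, and recruits coactivators of the p160 family, which in turn bring the histone acetyltransferases p300 and CBP. Corepressor complexes oppose them. In skeletal muscle, starvation raises circulating glucocorticoids, and the receptor is known for driving the breakdown of muscle protein. Peak lists measure where proteins and marks lay on chromatin, not how strongly a gene was expressed. The labelled tissue could therefore not be checked against expressed marker genes.

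The following 3 stretches were chosen because the main results turn on them, and all were read from GRCm38. The first is the 124 bases of the Ep300 promoter covered by GR and LSD1 peaks in both conditions, chr15:81585218-81585341 on the plus strand, with its 8 CpG dinucleotides in capitals. The second is the most GRE-like sequence among the GR peaks of the 9 genes, from a GR fed peak in an intron of Crebbp, chr16:4138566-4138660 on the plus strand, with both half-sites in capitals. The third is the GR fed peak upstream of Ncoa1, chr12:4488514-4488681 on the minus strand, where capitals mark the half-sites closest to a GRE.
Ep300 promoter: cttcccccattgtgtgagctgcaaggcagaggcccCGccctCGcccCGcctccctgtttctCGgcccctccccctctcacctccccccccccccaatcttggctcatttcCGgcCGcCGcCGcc
Crebbp intron: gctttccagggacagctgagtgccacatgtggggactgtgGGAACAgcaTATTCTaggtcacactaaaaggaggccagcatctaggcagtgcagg
Ncoa1 upstream: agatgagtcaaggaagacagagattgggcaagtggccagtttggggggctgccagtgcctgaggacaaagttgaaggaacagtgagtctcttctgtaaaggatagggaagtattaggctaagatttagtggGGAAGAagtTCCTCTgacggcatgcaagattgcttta

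The first question was at how many of the 9 genes GR and its partner LSD1 were found. A GR peak was assigned to all 9 genes in fed muscle, against 43.1% of all RefSeq genes, and to all 9 in starved muscle, against 66.5%. LSD1 was assigned to 7 genes in fed muscle, where Ncoa3 and Crebbp had no peak, against 51.1% of all genes. In starved muscle LSD1 was assigned to all 9, against 83.7%. The windows were 60.0 to 265 kb long, and a long window catches more peaks. Among genes with a window within 20% of the length of each member, the mean share with a peak was 50.3% for GR fed, 74.7% for GR starved, 56.7% for LSD1 fed and 91.8% for LSD1 starved. GR fed, GR starved and LSD1 starved all stood at 9 of 9 genes, the highest count possible. How far they lay above the like-length shares was therefore set by those shares alone and does not rank the lists.

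A stricter q-value limit of 0.01 left 6 genes with GR in fed muscle, against 33.6% of all genes, and 6 in starved muscle, against 40.6%. The 2 sets differed. Hsd11b1, Ncoa1, Ep300 and Crebbp were in both, Hsp90aa1 and Ncoa3 in the fed set only, and Nr3c1 and Ncoa2 in the starved set only. A gene in both sets need not share a site. Of the 7 GR fed peaks within this limit only 1, at Ep300, was overlapped by a GR starved peak within it. This was 14.3% (0.361% to 57.9%), against 55.8% of the list. For LSD1, 4 genes remained in fed muscle, against 32.4%, and 1 gene, Ep300, in starved muscle, against 24.0%. Of the 35 LSD1 starved peaks at these genes 1 reached this q-value, and 6790 of the 66332 peaks of the whole list did.

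Peaks at the 9 genes numbered 12 for GR fed and 31 for GR starved, a ratio of 2.58 with an exact 95% interval from 1.29 to 5.52, and the whole lists gave 2.68. For LSD1 there were 18 fed and 35 starved peaks, a ratio of 1.94 with an interval from 1.07 to 3.65, which did not reach the 3.99 of the whole lists. The intervals cover counting error only, since the peaks are not independent and the libraries not replicated. The higher number in starved muscle depended on weakly enriched peaks. At the q-value limit of 0.01 the ratio was 1.14 for GR, against 1.32 over the whole lists. For LSD1 it turned to 0.143, from 7 fed peaks and 1 starved peak, against 0.899 over the whole lists. With lists cut to equal length by q-value, which sets the whole-list ratio to 1, the ratios were 0.667 and 0.278. The LSD1 starved list is also far longer than the study's text gives, so that the direction of the LSD1 ratio holds for the deposited list only. Per gene, GR peaks ranged from 1 to 3 in fed and from 2 to 6 in starved muscle, and each of the 9 genes had more GR peaks in the starved list.

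**Figure D1:**
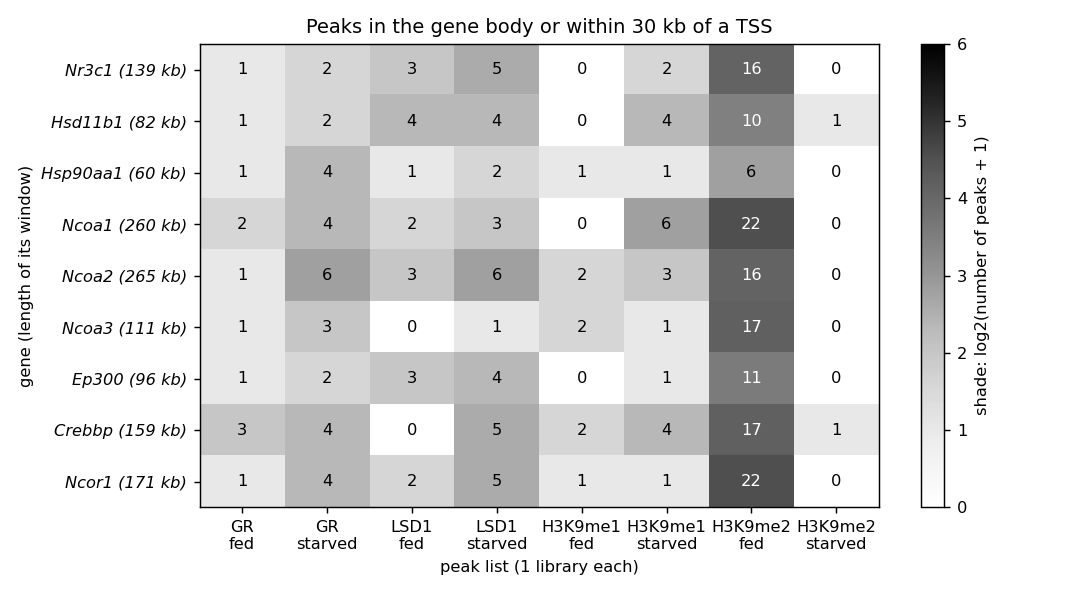
Number of peaks at each of the 9 genes (vertical axis, with the length of the gene window in kb) in each of the 8 peak lists (horizontal axis, 1 library each), with shading by log2 of the number plus 1. Every gene has at least 1 GR peak in both conditions, Ncoa3 and Crebbp lack LSD1 fed peaks, and H3K9me2 falls from 137 peaks in fed to 2 in starved muscle.

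Enrichment at these genes was modest. The fold enrichment over input had a median of 2.99 over the 12 GR fed peaks, with a range from 2.88 to 4.14, while the whole list had a median of 3.29, and 3 of the 12 lay above it. For GR starved the median was 2.60 at the 9 genes, with a range from 2.41 to 3.39, and 2.70 over the list, and 10 of the 31 peaks lay above it. The LSD1 peaks stood close to their lists, with medians of 3.99 against 4.03 in fed and 3.46 against 3.44 in starved muscle.

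**Figure D2:**
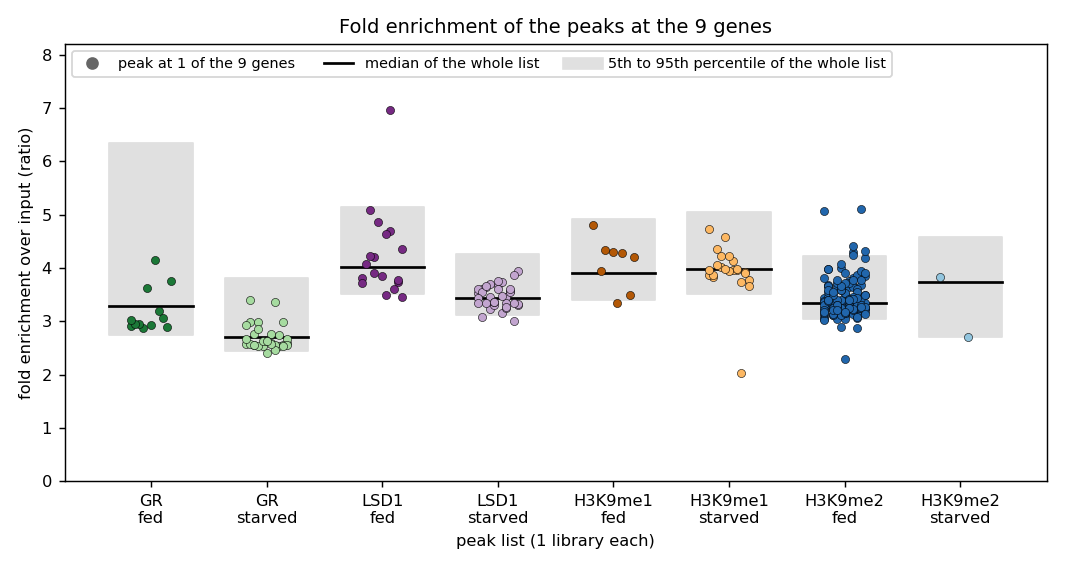
Fold enrichment over input (vertical axis, a ratio) of each peak at the 9 genes (points) in the 8 lists (horizontal axis), with the median (line) and the 5th to 95th percentile (grey) of each whole list. GR fed points reach 4.14 and most lie under the list median of 3.29, and 1 LSD1 fed point, in Ncoa1, stands at 6.95.

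Promoters were then considered, taken as the 1000 bp before and the 100 bp after a TSS. In fed muscle 5 of the 9 genes had a GR peak centred in a promoter, namely Nr3c1, Hsp90aa1, Ncoa2, Ep300 and Crebbp, against 13.4% of all genes. In starved muscle there were also 5, namely Nr3c1, Ncoa1, Ncoa3, Ep300 and Ncor1, against 23.3%. By this midpoint rule Nr3c1 and Ep300 were common to both conditions. Overlapping fed and starved GR peaks also lay at the starts of Hsp90aa1 and Crebbp, with the starved one centred outside the promoter. A promoter reaching 1 kb to either side, with any base of a peak, gave 5 genes for GR fed, against 17.5%. It gave 7 genes for GR starved, against 32.0%. LSD1 was centred in a promoter of 4 genes in fed muscle, Nr3c1, Hsd11b1, Ncoa2 and Ep300, against 22.4%, and of 2 genes in starved muscle, Nr3c1 and Crebbp, against 16.2%. Of the 12 GR fed peaks 5 were in promoters, 3 in introns and 4 outside the genes. The 31 GR starved peaks comprised 7 in promoters, 17 in introns and 7 outside. Since the windows reach 30 kb, 4 of the GR fed and 5 of the GR starved peaks lay nearer to the TSS of another gene.

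**Figure D3:**
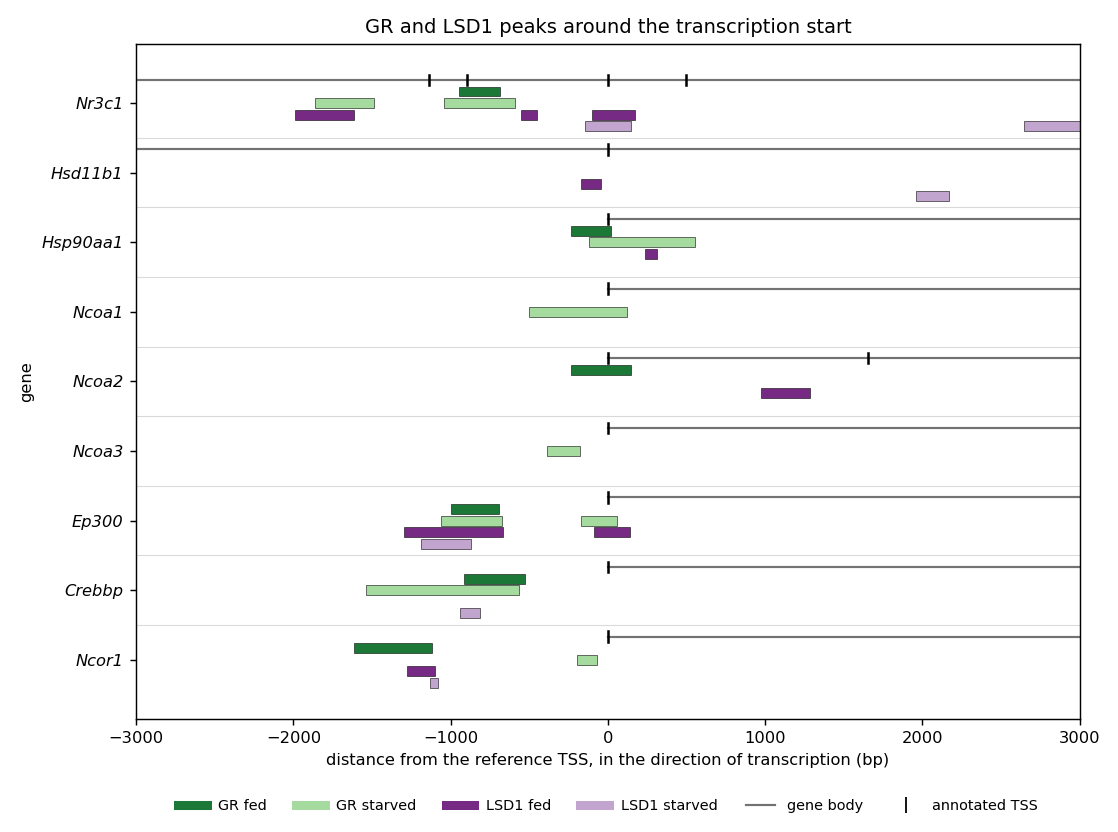
Position of GR and LSD1 peaks (bars, drawn to scale) within 3000 bp of 1 reference TSS for each of the 9 genes, with distance in bp in the direction of transcription on the horizontal axis. Bars of all 4 lists coincide only upstream of Ep300, and GR fed bars cover a TSS at Nr3c1, Hsp90aa1 and Ncoa2.

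Nr3c1, which encodes GR itself, lies on the minus strand of chromosome 18 from 39410545 to 39519421 and has 5 annotated TSSs that serve alternative first exons. Its only GR fed peak, 258 bp long, was centred 77 bp downstream of one of them, with a fold enrichment of 2.89 and a q-value of 0.0297. A GR starved peak overlapped it, with a fold of 2.68 and a q-value of 0.0197. A second GR starved peak was centred 537 bp upstream of the nearest TSS, with a fold of 2.75 and a q-value of 0.00693. No GR peak was therefore called anywhere else in the gene body or its flanks, in either condition.

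LSD1 was found in the same cluster of start sites in fed muscle, at 3 positions with folds of 4.23, 3.85 and 3.74. The nearest of them lay 133 bp from the GR fed peak without overlapping it, and the most upstream one overlapped the second GR starved peak. In starved muscle LSD1 had 5 peaks at Nr3c1, and 1 of them, with a fold of 3.35 and a q-value of 0.0280, overlapped the strongest fed peak. The other 4 were spread over an exon, introns and the upstream flank. An H3K9me2 fed peak with a fold of 2.87 lay 710 bp upstream of a TSS, and overlapped both the most upstream LSD1 fed peak and the second GR starved peak.

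Hsd11b1 encodes the enzyme that regenerates active glucocorticoid from its inert form inside cells, and spans 193221640 to 193264045 on the minus strand of chromosome 1, with 2 TSSs. Its single GR fed peak, with a fold of 3.03 and a q-value of 0.00934, was 9.10 kb upstream of the gene and only 44 bp from the TSS of the neighbouring G0s2, which encodes an inhibitor of the lipase of fat droplets. An LSD1 fed peak, with a fold of 5.08 and a q-value of 2.16e-04, lay within it, and neither GR nor LSD1 was called there in starved muscle. The assignment of this pair to Hsd11b1 thus rests on the 30 kb window alone.

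Within Hsd11b1, GR was called in starved muscle only. An intronic peak 9.27 kb upstream of the downstream TSS had a fold of 3.39 and a q-value of 1.27e-04, the highest fold of the 31 GR starved peaks. The other, 6.05 kb downstream of that TSS with a fold of 2.64, consisted entirely of repeat-masked sequence. LSD1 fed had a peak 106 bp upstream of the downstream TSS, with a fold of 4.35 and a q-value of 0.00437, and another 1.85 kb inside the gene, with a fold of 4.64. Neither was overlapped by any of the 4 LSD1 starved peaks, of which the closest was 2.00 kb from the first.

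Hsp90aa1 encodes the inducible form of the cytoplasmic heat shock protein 90, which holds GR ready for its ligand, and spans 110691036 to 110696395 on the minus strand of chromosome 12. The GR fed peak over its start site had a fold of 3.05 and a q-value of 8.07e-04. Of the 4 GR starved peaks of this gene, 1 overlapped the fed one. It was longer, at 675 bp, with a fold of 2.46, the lowest of the 4, and a q-value of 0.0421. It was centred 217 bp inside the gene and is not counted among promoter peaks for this reason. An LSD1 fed peak with a fold of 3.91 lay under this GR starved peak, 216 bp from the GR fed one. The LSD1 starved peak nearest to this GR starved peak was 20.8 kb away. The most enriched of the 4 GR starved peaks lay 10.4 kb upstream of the TSS, with a fold of 2.86 and a q-value of 0.0124.

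The p160 coactivators Ncoa1, Ncoa2 and Ncoa3 bind the ligand-bound receptor directly. Ncoa1 spans 4247362 to 4477182 on the minus strand of chromosome 12. It carried the most enriched GR peak of the 9 genes, 11.4 kb upstream of its TSS, with a fold of 4.14 and a q-value of 2.74e-07. This was the only GR peak at these genes with a q-value of 1e-05 or less. In starved muscle the nearest GR peak began 47 bp away and was the weakest of the 31, with a fold of 2.41 and a q-value of 0.0751. A second GR fed peak, deep in an intron, had a fold of 3.75 and a q-value of 1.13e-04, and the nearest GR starved peak was 91.5 kb away. At the Ncoa1 promoter the order was the opposite, since GR was called in starved muscle only, 188 bp upstream of the TSS, with a fold of 2.99 and a q-value of 0.00508. An H3K9me2 fed peak with a fold of 3.35 overlapped that promoter peak.

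The highest LSD1 fold among the 9 genes was also in Ncoa1, in an intron, where an LSD1 fed peak of 60 bp had a fold of 6.95 and a q-value of 7.14e-08. It exceeded 99.3% of the LSD1 fed list. An H3K9me2 fed peak with a fold of 5.06 lay on the same 60 bp, and 53.3% of the sequence was repeat-masked. Neither GR list had a peak there. Whether repeated sequence takes part in this signal was not tested.

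Ncoa2 spans 13139105 to 13374083 on the minus strand of chromosome 1. A GR fed peak covered its upstream TSS, with a fold of 2.95 and a q-value of 0.0232, and no GR starved peak was called there. The 6 GR starved peaks were all intronic. The most enriched one had a fold of 2.98 and a q-value of 0.00428, 184 kb inside the gene, and coincided with an LSD1 fed peak with a fold of 4.21. A further LSD1 fed peak lay between the TSSs, with a fold of 3.49 and a q-value of 0.0370. The 6 LSD1 starved peaks had folds of at most 3.61, and none overlapped a GR or an LSD1 fed peak.

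Ncoa3 spans 165992637 to 166073242 on the plus strand of chromosome 2 and had the fewest LSD1 peaks of the 3. Per Mb of window it had the most GR peaks of the 3, 9.04 in fed and 27.1 in starved muscle. GR fed had 1 peak, 5.54 kb upstream, with a fold of 3.62 and a q-value of 3.19e-04. GR starved had 3 peaks with folds from 2.54 to 2.58, of which 1 lay 283 bp upstream of the TSS with a q-value of 0.0335. The GR fed site was not called in starved muscle. There was no LSD1 fed peak, and the only LSD1 starved peak, with a fold of 3.09, was entirely repeat-masked.

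Ep300 and Crebbp encode the related acetyltransferases p300 and CBP, which add acetyl groups to histones at enhancers and promoters. Ep300 spans 81586214 to 81652077 on the plus strand of chromosome 15. Its promoter was the only place in the 9 genes where overlapping peaks of both factors were called in both conditions. The peaks were centred between 843 and 1030 bp upstream of the TSS, and their folds were 2.95 for GR fed, 2.74 for GR starved, 4.86 for LSD1 fed and 3.94 for LSD1 starved. The q-values were 0.00573, 0.00650, 3.42e-04 and 0.00706, so that all 4 passed the threshold of 0.01. The 124 bp common to all 4, printed above, had a GC content of 71.8% and lay from 996 to 873 bp upstream. A second pair of peaks lay over the TSS itself, GR starved with a fold of 2.64 and LSD1 fed with a fold of 3.71. The LSD1 starved peak was centred 1030 bp upstream and so falls just outside the promoter as defined.

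Crebbp spans 4084048 to 4213404 on the minus strand of chromosome 16, and had the most GR fed peaks of the set, 3, but no LSD1 fed peak. The promoter peak, 719 bp upstream of the TSS, had a fold of 2.88 and a q-value of 0.0313. It was overlapped by a GR starved peak of 976 bp with a fold of 2.60, by an LSD1 starved peak with a fold of 3.16, by an H3K9me1 starved peak with a fold of 4.03 and by an H3K9me2 fed peak with a fold of 3.81. An intronic GR fed peak 74.8 kb inside the gene, with a fold of 2.91, was also overlapped in starved muscle, with a fold of 2.57. The third GR fed peak, 37.9 kb inside, had a fold of 3.19 and a q-value of 0.00787 and was called in fed muscle only. Conversely, GR starved peaks 56.0 kb and 23.0 kb inside the gene, with folds of 3.37 and 2.98, had no fed counterpart.

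Ncor1 encodes the nuclear receptor corepressor that brings histone deacetylases to unliganded or antagonised receptors, and spans 62316426 to 62457332 on the minus strand of chromosome 11. The GR fed peak, with a fold of 2.93 and a q-value of 0.0186, was 1.37 kb upstream of it but 257 bp from the TSS of the divergent neighbour Pigl, an enzyme gene of the glycosylphosphatidylinositol anchor pathway. Overlapping it were 2 LSD1 peaks still nearer to the Pigl TSS, with folds of 3.60 in fed and 3.44 in starved muscle. GR starved instead had a peak 134 bp upstream of the Ncor1 TSS, with a fold of 2.62 and a q-value of 0.0122, on the same stretch as an H3K9me1 fed peak with a fold of 3.35. The fed and the starved GR peak lay 916 bp apart, and only the starved one was between the 2 start sites.

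**Figure D4:**
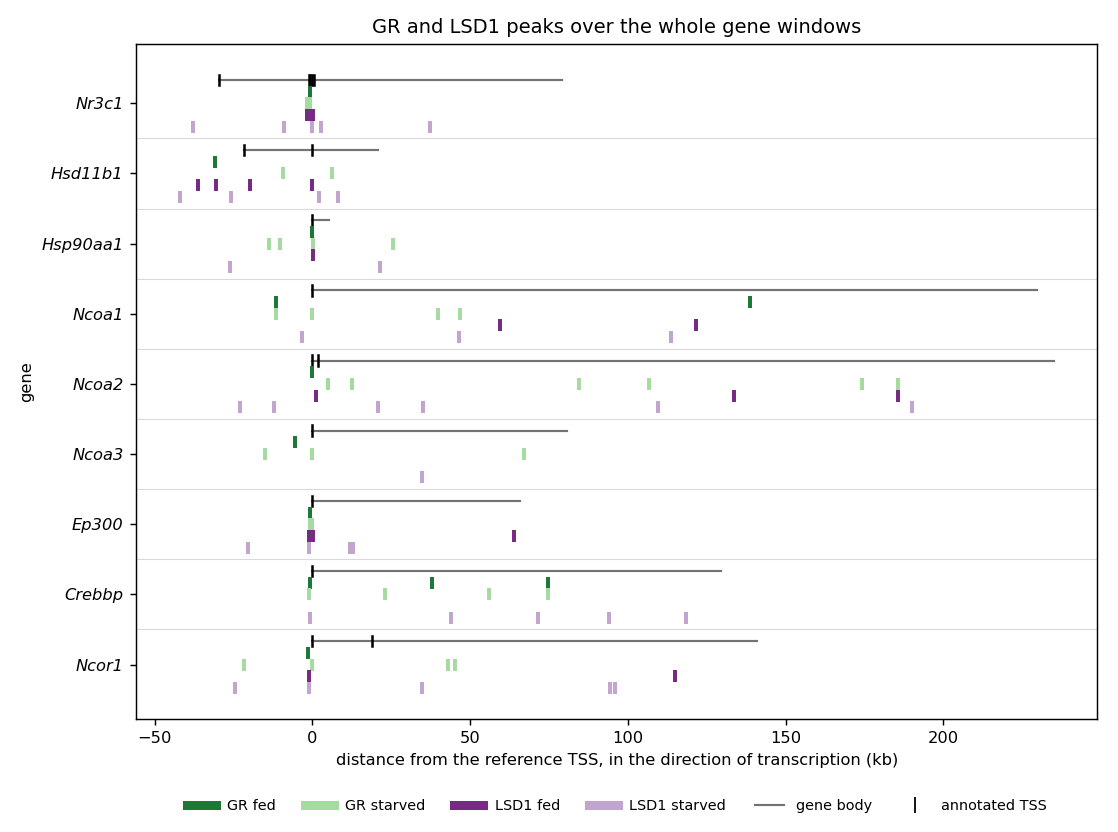
GR and LSD1 peaks (ticks, not to scale) over the windows of the 9 genes, with distance in kb from 1 reference TSS in the direction of transcription on the horizontal axis, and gene bodies as grey lines. GR ticks of both conditions lie near the TSS in Nr3c1, Hsp90aa1, Ep300 and Crebbp, among others. In Crebbp both conditions also have GR ticks deep in the gene body.

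Because all 9 genes had a GR peak in both full lists, the next comparison was whether the same sites were occupied. Of the 12 GR fed peaks 5 were overlapped by a GR starved peak, 41.7% with an exact 95% interval from 15.2% to 72.3%, and 65.8% of the whole GR fed list were. These 5 lay in 4 genes, Nr3c1, Hsp90aa1, Ep300 and, at 2 sites, Crebbp. The share of GR fed peaks overlapped by LSD1 fed was 3 of 12, or 25.0% (5.49% to 57.2%), against 48.3% over the list, at Ep300 and at the flanking G0s2 and Pigl sites. In starved muscle 2 of 31 GR peaks were overlapped by LSD1, or 6.45% (0.791% to 21.4%), against 14.7%, at Ep300 and Crebbp. For LSD1, 3 of the 18 fed peaks were called again in starved muscle, or 16.7% (3.58% to 41.4%), against 23.1%. In these 4 comparisons the share at the 9 genes was lower than that of the list, but each interval included the list's value, so that no difference was detectable with so few peaks. Some pairs lay above the list. GR fed peaks overlapped by LSD1 starved made up 25.0%, against 21.4%. For LSD1 starved peaks the share was 8.57% against 4.75% for overlap by GR fed, and 8.57% against 5.85% for overlap by LSD1 fed. The remaining pairs of GR and LSD1 lists lay below. Counted from the LSD1 fed peaks, the share overlapped by GR fed was 3 of 18, or 16.7% (3.58% to 41.4%), against 42.8% of the list. The share overlapped by GR starved was 5 of 18, or 27.8% (9.69% to 53.5%), against 55.1%. Both intervals ended just below the list's value, but many pairs were compared, and overlap meant at least 1 bp. With midpoints within 500 bp instead, 5 of 12 GR fed peaks had an LSD1 fed peak. This was 41.7% (15.2% to 72.3%), against 51.0% of the list.

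The motif of GR was searched as the half-sites AGAACA and TGTTCT 3 bases apart, a palindrome that reads alike on both strands. None of the 12 GR fed peaks held it with at most 1 mismatch (upper limit of the exact interval 26.5%), and 2.17% of the whole list did. None of the 31 GR starved peaks held it either (upper limit 11.2%), against 0.712% of the list. With at most 2 mismatches there was 1 match, in the intronic Crebbp peak printed above, against 9.75% of the GR fed list. Counted from 1 at the 5′ end of the consensus on the plus strand, its differences were A1G and G11A. The peak upstream of Ncoa1, the most enriched of all, held no match closer than 4 mismatches.

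Histone marks at the 9 genes were compared last. H3K9me2, a mark of silent chromatin that LSD1 can remove, gave 137 peaks at all 9 genes in fed muscle, against 95.5% of all genes, and 2 peaks at 2 genes in starved muscle, against 10.2%. The mean shares among genes of like length were 98.0% in fed and 17.4% in starved muscle. The ratio of starved to fed peaks was 0.0146, with an exact 95% interval from 0.00175 to 0.0538. The whole lists gave 0.0386, within this interval. Of the 137 peaks 94 were intronic, 33 outside the genes, 7 exonic and 3 in promoters. The promoter peaks were those of Nr3c1, Ncoa1 and Crebbp, 3 of the 9 genes, against 22.3% of all genes. Ncoa3 had the densest H3K9me2 fed coverage, with 154 peaks per Mb, higher than in 90.6% of all genes, and Ncoa2 the sparsest, with 60.4 per Mb.

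H3K9me1, the monomethylated form, was assigned to 5 genes in fed muscle, against 38.0% of all genes, and to all 9 in starved muscle, against 65.6%. Among genes of like length the mean shares were 55.2% and 81.5%. The peaks numbered 8 and 23, a ratio of 2.88 against 2.68 over the whole lists, and none of the fed ones was overlapped by a starved one, against 2.79% of the whole fed list. An intronic site of Hsd11b1, fully repeat-masked and 78 bp long, stood apart. It was called in H3K9me2 starved with a fold of 2.70 and a q-value of 2.56e-24, in H3K9me2 fed with 2.30 and 7.57e-15, and in H3K9me1 starved with 2.03 and 1.01e-09. These were the lowest q-values of the 9 genes in their lists, at folds under each list's 5th percentile. The part of repeated sequence in these calls was not tested.

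A list of 25 other genes of the pathway served as a setting for these values. GR was assigned to 23 of them in fed muscle, against 43.1% of all genes, and to all 25 in starved muscle, against 66.5%. LSD1 was assigned to 23 in fed muscle, against 51.1%, and to 24 in starved muscle, against 83.7%. These shares are not matched for gene length. A GR peak in a promoter was found for 11 in fed muscle, against 13.4% of all genes, and for 19 in starved muscle, against 23.3%. The highest GR folds were well above any at the 9 genes. Fkbp5, a co-chaperone that restrains GR and a classical GR target, had a GR fed peak with a fold of 17.4 in its upstream flank. The closest GRE-like sequence in that peak had 2 mismatches. A GR starved peak with a fold of 10.2 lay 65.6 kb inside the gene and held a GRE free of mismatches. The TSSs of Armc12 and Tulp1 were nearer to these peaks. H6pd, whose product feeds cofactor to the Hsd11b1 enzyme, had highest folds of 9.25 in fed and 6.61 in starved muscle. These were different sites, 4.10 and 23.3 kb inside the gene, and their closest GRE-like sequences had 4 and 3 mismatches. The mineralocorticoid receptor gene Nr3c2, the closest relative of Nr3c1, had 3.20 and 2.78, similar to Nr3c1 itself. The fed peak of Nr3c2 was in its promoter and the starved one 75.8 kb inside the gene.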

How the data were processed

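The authors mapped single-end reads to mm10 (GRCm38), kept reads with a single location and called broad peaks per library with MACS2 against the input library. Their methods name Bowtie and a blacklist made for the human genome, whereas the deposited peak names carry Bowtie2. The values deposited by the authors for each peak were the fold enrichment over input, which is a ratio, and the p-value and q-value, both as −log10. Their deposited score was not used. The methods state that peaks with a false discovery rate above 0.01 were excluded, but the least stringent deposited q-values lay between 0.0925 and 0.0998, and in every list except GR fed more peaks lay past 0.01 than within it. The main counts use all deposited peaks. The 2 input libraries entered only through peak calling. The deposited LSD1 starved list, with 66332 peaks, is far longer than the study's text gives, which has fewer LSD1 peaks in starved than in fed muscle. It was taken as it stands.

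Peak midpoints were assigned with 45756 curated RefSeq transcripts of 26186 genes. A promoter was the 1000 bp before and 100 bp after a TSS. Lists were overlapped by at least 1 bp. Shares have exact (Clopper-Pearson) 95% intervals, which cover counting error only. GRE-like sequences were searched in whole peaks, the results of another motif and of 1 pathway gene are not reported here, and repeat content was read from the soft-masked genome. All 9 members were named, with promoter peaks, shared peaks and GRE-like matches. The peak of highest fold was given for some lists only, so a printed fold is not always the highest of its gene and list. The 9 members, the 25 pathway genes, the motif and the alternatives were chosen with earlier results of these data known. The scripts (Python 3.11.15, numpy 2.4.6, scipy 1.17.1, pysam 0.24.0) were tested on simulated peaks.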

Additional observations from a re-analysis of the deposited data

How the results depend on the processing

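Over 165 alternative values, 123 kept their direction and stayed near the main value (within 1.5 times for counts, within the counting interval for shares and ratios). By this measure the window, the annotation and the way of assigning peaks changed few results. With the nearest TSS only, however, GR fed fell from 9 to 7 genes, against 25.9% of all genes, while GR starved stayed at 9, against 49.2%. LSD1 fed fell from 7 to 6 genes, against 32.4%. With peaks within 30 kb of a TSS only, H3K9me1 fed was left at 3 genes, against 33.1% of all genes, and H3K9me2 starved was left at 1 gene with a 10 kb window (6.48%) or the nearest TSS (6.96%). A promoter reaching 1 kb to either side, with any base of a peak, gave 5 genes for H3K9me2 fed, against 32.9% of all genes. In the following counts the share of all genes stands in parentheses. At a q-value of 0.01 or less, LSD1 had 4 genes fed (32.4%) and 1 starved (24.0%), H3K9me1 fed 3 (18.5%), and H3K9me2 starved 1 (1.95%). At 1e-05 or less, 1 gene was left for GR fed (15.2%), LSD1 fed (1.86%), H3K9me1 starved (2.12%), H3K9me2 fed (1.69%) and H3K9me2 starved (0.390%), and 0 for GR starved (11.3%), LSD1 starved (0.810%) and H3K9me1 fed (0.661%). A fold of at least 4 left 1 gene for GR fed (13.7%), 3 for H3K9me1 fed (19.0%) and 0 for GR starved (7.03%), LSD1 starved (24.3%) and H3K9me2 starved (3.22%). With equally long lists by q-value, LSD1 starved had 3 genes (45.7%) and H3K9me2 fed 5 (21.9%).

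The starved to fed ratio of peaks depended on these thresholds. For GR it was 1.14 at a q-value of 0.01, 0 at 1e-05 and at a fold of 4, and 0.667 with equal lists. Each 0 came from 1 fed and 0 starved peaks, where the whole lists gave 0.702 and 0.462. For LSD1 the ratio was 0.143, 0, 0 and 0.278 in the same order. The 0 at 1e-05 came from 1 fed peak, against 0.605 over the whole lists. The 0 at a fold of 4 came from 9 fed peaks, against 0.824. With equal lists the ratio was 0.75 for H3K9me1 and 0.4 for H3K9me2. For H3K9me2 it was 1 at 1e-05, from 1 fed and 1 starved peak, against 0.338 over the whole lists. At a fold of 4 it was 0, from 9 fed peaks, against 0.110. At a q-value of 0.01, 1 of 7 GR fed peaks was called again in starved muscle, or 14.3% (0.361% to 57.9%), against 55.8% of the list. The share was 0 of 1 at 1e-05 and at a fold of 4, against 45.0% and 35.1% of the list. With equal lists it was 1 of 12, or 8.33% (0.211% to 38.5%), against 48.7%. The share of GR fed peaks overlapped by LSD1 fed was 0% at 1e-05 and at a fold of 4, where 1 GR peak was left. The whole list gave 3.51% and 41.4% at these settings. At most 2 mismatches gave 1 gene with a GRE-like sequence in fed muscle. No value could be had for the H3K9me1 ratio at 1e-05, where no fed peak was left, or for the starved GR and LSD1 share at 1e-05 and at a fold of 4, where no GR starved peak was left. No paired analysis was possible because each group had 1 library. The depth of the libraries is unknown, which limits every comparison between lists.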
